A study of Mus musculus with 8 samples.

Results

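Genes of the major histocompatibility complex (MHC) class I presentation pathway were followed in tumour endothelial cells (ECs) 3 h after an intratumoural (i.t.) injection. The 10 genes were chosen by name as the core of the pathway, with earlier results of these data known. They were H2-K1, H2-D1, B2m, Tap1, Tap2, Tapbp, Nlrc5, H2-T23, H2-Q4 and Erap1, of 20408 genes listed in at least 1 library. All 10 passed the filter on low values. Single-cell RNA sequencing had been performed on 8 libraries of live ECs sorted as CD31+ CD45-, 2 for each of 4 groups. MMTV-PyMT mice, in which the mammary tumour virus promoter drives polyoma middle T antigen and female mice develop breast tumours by themselves, gave the spontaneous tumours. In the implanted model, MMTV-PyMT tumour cells were cultured and placed with Matrigel in the mammary fat pad of adult female recipients, so the ECs came from a host without the transgene. Each model received PBS or 3′3′cGAMP, an agonist of the cytosolic DNA sensor adaptor STING, and every comparison was made at the same time after injection. The methods of the study name FVB mice for both models, while the labels give another strain. The strain was not settled here. It matters for the heavy chains, which share near-identical stretches and were mapped to a single reference strain, the classical ones being polymorphic. The split of molecules between H2-K1, H2-D1, H2-Q4 and H2-T23 is therefore uncertain. A comparison of 1 gene between groups uses the same mapping throughout, but molecules assigned to the wrong gene could still affect it.

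Class I molecules display peptides from inside the cell to CD8+ T cells, and nearly all nucleated cells, ECs included, carry them. Proteasomes cut proteins to peptides, the TAP1-TAP2 transporter moves these into the endoplasmic reticulum, aminopeptidases such as ERAP1 trim them, and tapasin (Tapbp) holds empty heavy chain and β2-microglobulin beside the transporter until a peptide fits. Interferons are known to raise most of these genes, through IRF factors and through NLRC5, a transactivator that acts on class I promoters, and STING agonists are known inducers of type I interferon.

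Of the 10 genes, 7 lie in the MHC region of chromosome 17 (GRCm38, GENCODE vM21), among them H2-K1 at chr17:33996017-34000347 and H2-D1 at chr17:35262730-35267499. B2m lies at chr2:122147686-122153083, Nlrc5 at chr8:94434356-94527272 and Erap1 at chr13:74639568-74693201. Promoter sequence was found for 8 of the 10 in the RefSeq table (GRCm38.p6), and not for Tap2 and Nlrc5. The 180 bases before the RefSeq start are shown for 5 of them, because these hold the letters searched for. Capitals mark a κB-type motif (GGG, any 2 bases, TT, any base, CC), an interferon-response core (GAAA, any 2 bases, GAAA), or a TGACG followed 8 to 30 bases on by ATTGG, the core letters of the X2 and Y boxes of the class I enhanceosome, each searched on both strands.
H2-K1: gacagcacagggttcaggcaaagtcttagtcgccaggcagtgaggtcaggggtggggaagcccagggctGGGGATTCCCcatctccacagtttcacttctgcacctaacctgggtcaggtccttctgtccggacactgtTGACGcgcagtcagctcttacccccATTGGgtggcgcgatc
H2-D1: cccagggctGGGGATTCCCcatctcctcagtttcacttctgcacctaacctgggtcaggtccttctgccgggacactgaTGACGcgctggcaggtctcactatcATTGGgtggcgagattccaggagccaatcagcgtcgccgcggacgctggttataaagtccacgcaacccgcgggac
B2m: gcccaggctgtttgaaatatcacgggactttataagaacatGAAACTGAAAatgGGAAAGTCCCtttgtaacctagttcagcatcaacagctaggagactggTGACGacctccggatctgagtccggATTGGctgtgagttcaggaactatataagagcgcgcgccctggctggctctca
H2-Q4: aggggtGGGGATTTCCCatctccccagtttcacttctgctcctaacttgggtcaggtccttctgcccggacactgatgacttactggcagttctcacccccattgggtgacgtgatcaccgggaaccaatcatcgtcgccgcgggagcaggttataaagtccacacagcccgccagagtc
H2-T23: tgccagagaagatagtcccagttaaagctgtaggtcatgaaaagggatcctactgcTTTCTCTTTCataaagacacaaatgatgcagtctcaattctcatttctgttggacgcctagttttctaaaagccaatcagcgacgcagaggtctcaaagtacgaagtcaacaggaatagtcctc
These windows are chr17:34000348-34000527 on the minus strand for H2-K1, chr17:35262914-35263093 on the plus strand for H2-D1, chr2:122147507-122147686 on the plus strand for B2m, chr17:35379437-35379616 on the plus strand for H2-Q4 and chr17:36032702-36032881 on the minus strand for H2-T23. Within 250 bases before the start, the κB-type motif stood in H2-K1, H2-D1, B2m and H2-Q4, against 4.11% of all 32851 windows of that length. In H2-Q4 its 2 matches overlap by all but 1 base. The TGACG and ATTGG pair stood in H2-K1, H2-D1 and B2m with 20 bases between its parts in each, and in 0.658% of all windows. The interferon-response core was in B2m and, on the other strand, in H2-T23 (2.98% of all windows). H2-K1, H2-D1 and H2-Q4 share the letters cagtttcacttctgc, which resemble that core on the other strand without matching it. Looser forms were not searched, so a missing match does not mean that such an element is absent. A GAS-type motif (TTC, any 3 bases, GAA), held by 7.02% of all windows, was in none of the 8, and Tap1, Tapbp and Erap1 held none of the 4 motifs. The RefSeq starts of H2-D1, H2-T23, Tapbp and Erap1 lie inside the GENCODE spans of these genes. The 250-base windows of H2-D1, Tapbp and Erap1 lie wholly inside, so they do not describe the sequence before the GENCODE start. For Tapbp the window begins at 33919228 on chromosome 17 and the span at 33915899. RefSeq gave H2-K1 a further start nearby with the same matches. A match describes letters only, not binding.

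The libraries held 8204 cells, of which 7159 had at least 1 unique molecular identifier (UMI) of Pecam1, the gene of CD31, and were used as ECs. Their UMIs summed to between 7451522 and 16338968 per library, and 8 EC markers summed to 5443 to 6552 CPM (UMIs per 1000000 of a cell's total, averaged over cells) in every library. Cell barcodes were shared in 5 of 28 library pairs, at most 3 in a pair. One implanted cGAMP library, replicate 1, stood apart: 75.5% of its cells had Pecam1 against 88.7% to 92.8% elsewhere, and its median EC had 3049 UMIs against 9523 to 14708. Its ECs also had the highest sum over 10 immune markers, 271 CPM against at most 79.8, and over 7 epithelial markers, 1082 CPM against 159 to 702. The 6 mural markers summed to 79.0 and 425 CPM in spontaneous PBS, 697 and 551 CPM in spontaneous cGAMP and 74.6 to 203 CPM in implanted libraries. In ECs with no UMI of 8 defining genes of other cell types, 10 and 8 of the 10 genes were called higher after cGAMP in spontaneous and implanted tumours, against 10 and 9 in all ECs.

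With PBS, ECs of spontaneous tumours held the lowest level of every one of the 10 genes, and cGAMP raised all 10. H2-K1, a classical heavy chain that presents peptide to CD8+ T cells, had a mean level of 971 and 982 CPM in the PBS libraries and 4417 and 4434 CPM in the cGAMP libraries. The change was 2.18 ± 0.10 on the log2 scale (SE, limma, Benjamini-Hochberg adjusted p = 1.05e-06), far more than the gap between libraries of a group. H2-D1, the other classical heavy chain measured, stood at 3089 and 3019 CPM with PBS and at 11256 and 11483 CPM with cGAMP, a log2 change of 1.90 ± 0.10. B2m, the light chain that every class I heavy chain needs, went from 980 and 1181 CPM to 5055 and 4978 CPM (log2 change 2.22 ± 0.12). In each of these genes the groups did not overlap, which with 2 libraries a group also occurs in unchanged genes.

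The peptide-supply genes rose more unevenly. Tap1, a subunit of the peptide transporter, was at 32.4 and 27.5 CPM with PBS and at 231 and 238 CPM with cGAMP, a log2 change of 2.93 ± 0.23. Tap2, its partner subunit, moved from 76.9 and 80.0 CPM to 248 and 242 CPM (log2 change 1.63 ± 0.14), so that the UMIs of Tap1 per UMI of Tap2 in a library were 0.373 and 0.364 with PBS and 0.967 and 0.978 with cGAMP. Tapbp, the peptide editor, changed from 127 and 124 CPM to 523 and 504 CPM. Erap1, the trimming aminopeptidase, had the smallest change of the 10, from 44.1 and 41.4 CPM to 68.1 and 67.3 CPM (0.65 ± 0.12, adjusted p = 0.00833).

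Nlrc5, the class I transactivator, showed the largest log2 change at the pseudocount of 1 CPM, 3.40 ± 0.22, from 2.15 and 1.28 CPM to 24.3 and 30.5 CPM. The PBS levels rested on 23 and 15 UMIs in whole libraries, so its fold carries more counting error than the others. Its size and its rank among the 10 also depend on the pseudocount. The non-classical genes followed: H2-T23, whose product Qa-1 presents leader peptides to NKG2A receptors, rose from 76.2 and 78.4 CPM to 463 and 516 CPM, and H2-Q4, a Qa-region heavy chain, from 89.1 and 81.1 CPM to 437 and 498 CPM. All 10 genes were called higher (adjusted p below 0.05), where 5.09% of the 10424 genes tested were called higher. Their median log2 change was 2.20, against -0.10 over all genes tested. Leaving out spontaneous PBS replicate 2 or either spontaneous cGAMP library ended the call of Erap1, with adjusted p between 0.0563 and 0.0698.

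**Figure D1:**
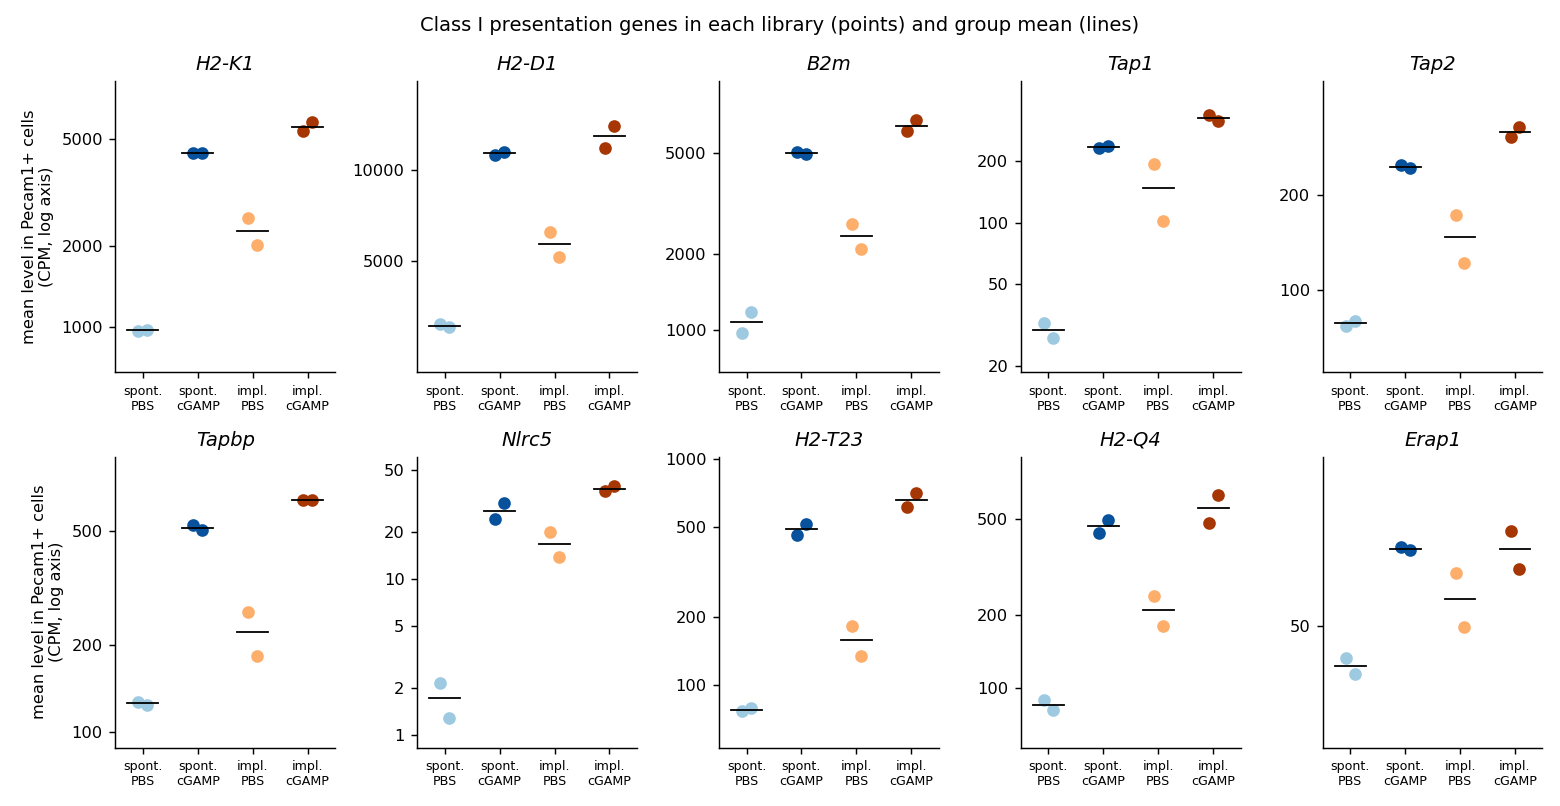
Mean level (CPM, log axis) of each gene in Pecam1+ cells, 1 point for each library and a line at the group mean (n = 2). In all 10 panels the spontaneous PBS libraries are lowest, at 971 and 982 CPM for H2-K1, and in 9 panels the implanted cGAMP mean is highest, with Erap1 as the exception.

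In implanted tumours the same injection raised 9 of the 10 genes, from levels that were already higher. H2-K1 was at 2538 and 2021 CPM with PBS and at 5330 and 5770 CPM with cGAMP, a log2 change of 1.29 ± 0.10 (limma, adjusted p = 3.89e-05). H2-D1 went from 6228 and 5178 CPM to 11863 and 14041 CPM, and B2m from 2627 and 2092 CPM to 6135 and 6739 CPM. The libraries did not overlap between PBS and cGAMP for any of these genes, with the same limit of 2 libraries a group. Tap1 was the most uneven gene between PBS libraries, with 195 CPM in replicate 1 and 102 CPM in replicate 2, and reached 335 and 315 CPM with cGAMP (2.30-fold, adjusted p = 0.00528). Tap2 moved from 173 and 122 CPM to 305 and 327 CPM, and its ratio to Tap1 did not shift as in spontaneous tumours: Tap1 UMIs per Tap2 UMI were 1.18 and 1.01 with PBS and 1.09 and 1.04 with cGAMP.

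H2-T23 had the largest log2 change of the 10 in implanted tumours, 2.07 ± 0.13, from 181 and 134 CPM to 615 and 706 CPM. Tapbp rose from 260.5 and 183 CPM to 643 CPM in each cGAMP library, and H2-Q4 from 240.1 and 181 CPM to 484 and 633 CPM. Nlrc5 stood at 19.9 and 13.8 CPM with PBS and at 36.5 and 39.4 CPM with cGAMP (1.14 ± 0.22, adjusted p = 0.00517). Its call ended without implanted PBS replicate 2 (adjusted p = 0.0526) and in cells with no UMI of 8 genes of other cell types (0.141). Erap1 was at 61.6 and 49.7 CPM with PBS and at 72.7 and 62.5 CPM with cGAMP, a log2 difference of 0.28 ± 0.12 that did not pass (adjusted p = 0.125). The 9 calls compare with 8.6% of all genes called higher, and the median log2 change was 1.25 against -0.10 over all genes. Without implanted cGAMP replicate 1, the library that stood apart, 9 genes were again called higher.

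The responses of the models were set against each other in the same fit, with each model's own PBS libraries as its control. All 10 log2 changes were smaller in implanted tumours, with a median difference of -0.74 against -0.02 over all genes tested, and 2 passed the test of the difference where 0.46% of all genes were called lower. Nlrc5 differed by -2.25 ± 0.31 (limma, adjusted p = 0.0237) and H2-K1 by -0.89 ± 0.14 (adjusted p = 0.0323), while Tap1, with -1.73 ± 0.33, missed the threshold (adjusted p = 0.0559). For the other 7 genes the adjusted p lay between 0.0776 and 0.387. The number called was sensitive to single libraries: it was 0 without spontaneous PBS replicate 2 or either spontaneous cGAMP library, 1 without spontaneous PBS replicate 1, 4 without implanted cGAMP replicate 2 and 8 without implanted PBS replicate 2. The size of the difference for H2-K1 ran from -0.72 without implanted PBS replicate 1 to -1.05 without implanted PBS replicate 2. That of Nlrc5 fell to -1.28 with a pseudocount of 5 CPM (limma, adjusted p = 0.0507).

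**Figure D2:**
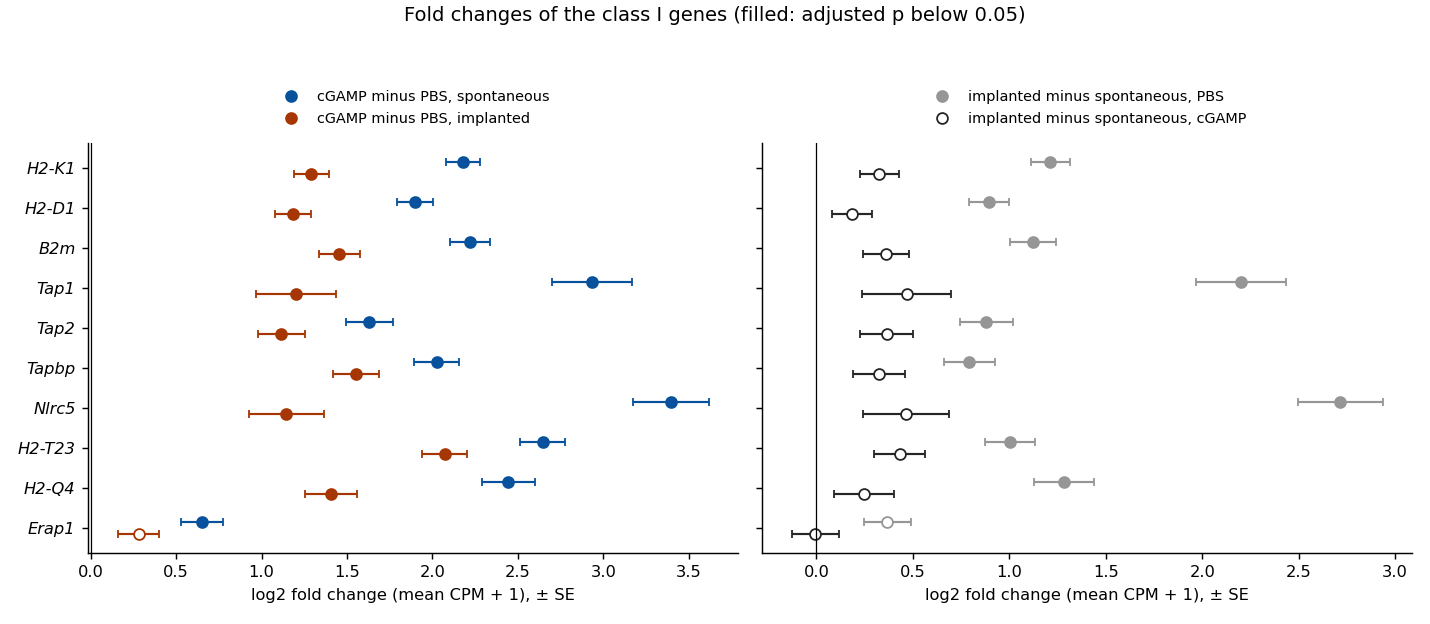
Log2 fold change with its SE for each gene, cGAMP against PBS in each model (left) and implanted against spontaneous under each treatment (right); filled points have an adjusted p below 0.05. The Nlrc5 points lie at 3.40 and 1.14 on the left, and on the right the PBS points lie at 0.37 to 2.72 while those after cGAMP lie at -0.01 to 0.47.

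For these 10 genes the models differed more with PBS than after cGAMP. In implanted tumours 9 of the 10 genes were higher than in spontaneous tumours, where 3.39% of all genes were called higher. Nlrc5 differed by 2.72 ± 0.22 on the log2 scale (limma, adjusted p = 0.000205), Tap1 by 2.20 ± 0.23, H2-Q4 by 1.28 ± 0.15 and H2-K1 by 1.21 ± 0.10. B2m followed with 1.12 ± 0.12, H2-D1 with 0.89 ± 0.10, Tap2 with 0.88 ± 0.14 and Tapbp with 0.79 ± 0.13, and H2-T23 was 2.01-fold higher (adjusted p = 0.00217). Erap1, at 0.37 ± 0.12, was the gene that did not pass. In none of the 10 did the PBS libraries of the models overlap. This was not counted over all genes, and with 2 libraries a group it also occurs in unchanged genes. The call of Tapbp ended without spontaneous PBS replicate 2 (adjusted p = 0.0747), without the trend (0.0526) and without a filter on low values (0.0532), where that of H2-D1 ended too (0.0514). These differences use the same PBS libraries as the responses above, so the results are not independent of each other.

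After cGAMP the models were closer in these genes, while over all genes 1434 were called between models, against 816 with PBS. None of the 10 genes passed in limma, where 13.8% of all genes were called in either direction. An unadjusted p below 0.05 was found for 5 of the 10 and for 3155 of all 10424 genes tested. The log2 differences, implanted minus spontaneous, ran from -0.01 ± 0.12 for Erap1 to 0.47 ± 0.23 for Tap1, and the lowest adjusted p values were 0.0584 for H2-T23 (0.43 ± 0.13) and 0.0601 for H2-K1 (0.33 ± 0.10). Counts under other settings ran from 0 to 5, with 5 called when either implanted PBS library was left out of the fit. The order of the group means was the same for 9 genes, spontaneous PBS, implanted PBS, spontaneous cGAMP and implanted cGAMP from low to high. How many of all genes share it was not counted. Neighbours in that order overlapped for H2-Q4 between the cGAMP groups. Erap1 had the cGAMP groups in the other order, with 67.7 ± 0.511 CPM for spontaneous tumours and 67.6 ± 7.24 CPM for implanted ones (SD, n = 2), which overlapped as well.

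Across the 8 libraries the genes moved in parallel: the 45 pairs had Pearson correlations of log2 level between 0.915 and 0.998, with a median of 0.977. The libraries fall into 4 treatment groups that all pairs share, so this describes the group pattern. Outside the pathway, the genes whose levels were most like the mean of the 10, among 8327 with at least 10 CPM on average, were Parp10, Parp12, Il18bp, Zbp1 and Gbp7, with correlations of 0.994 to 0.995. Zbp1, a sensor of Z-form nucleic acid, went from 5.19 and 6.50 CPM to 228 and 239.5 CPM with cGAMP in spontaneous tumours, and from 88.7 and 47.1 CPM to 345 and 359.8 CPM in implanted ones. The 10 genes together held 0.512% and 0.535% of all EC UMIs of spontaneous tumours with PBS and 2.29% and 2.33% with cGAMP. Implanted tumours gave 1.33% and 1.06% with PBS, and 2.78% and 2.99% with cGAMP.

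The rest of the pathway was taken from a list chosen by function. All 5 proteasome genes rose in both models, where 5.09% (spontaneous) and 8.6% (implanted) of all genes were called higher: Psmb8, Psmb9 and Psmb10, the catalytic subunits of the immunoproteasome, and Psme1 and Psme2, the subunits of its PA28 cap. Psmb8 went from 182 ± 2.57 CPM (SD, n = 2) to 973 ± 18.3 CPM in spontaneous tumours (log2 change 2.41 ± 0.11, limma, adjusted p = 1.19e-06) and from 533 ± 108 CPM to 1205 ± 6.36 CPM in implanted tumours (1.19 ± 0.11). The smallest changes were those of Psme2, 1.12 ± 0.11 and 0.63 ± 0.11. All 5 were also higher in implanted than in spontaneous tumours with PBS (3.39% of all genes), and the responses of the 3 catalytic subunits differed between models, Psmb9 by -1.37 ± 0.17 (adjusted p = 0.021), Psmb8 by -1.22 ± 0.16 and Psmb10 by -0.82 ± 0.13. These 3 calls of a difference ended with no filter, with no trend and without any 1 of the 4 spontaneous libraries.

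Of the 4 loading partners, 3 rose in spontaneous and 4 in implanted tumours, beside the same 5.09% and 8.6% of all genes. Tapbpl (TAPBPR), a peptide editor related to tapasin, changed by 1.29 ± 0.16 and 0.68 ± 0.16. The general chaperones and the oxidoreductase of the loading complex changed less: Calr by 0.48 ± 0.09 and 0.63 ± 0.09, Pdia3 by 0.26 ± 0.08, just under the threshold, and 0.66 ± 0.08, and Canx by 0.13 ± 0.07 (adjusted p = 0.261) and 0.49 ± 0.07. In implanted tumours Hspa5, the endoplasmic reticulum chaperone BiP, rose as well (0.75 ± 0.11), 1 of 6 trafficking and trimming genes to do so (2 with median-of-ratios scaling). In spontaneous tumours none of these 6 passed, with Hspa5 at 0.21 ± 0.11 and Thop1, a cytosolic peptidase, at -0.31 ± 0.25.

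Of 22 other class I and class I-like heavy chains, 12 were high enough to test. In spontaneous tumours 8 rose and none fell, beside 5.09% of all genes called higher. In implanted tumours 7 rose, beside 8.6%, and 2 fell, a share near the 16.4% of all genes called lower. H2-Q7, a Qa-2 gene, went from 38.0 and 40.1 CPM to 383 and 387 CPM in spontaneous tumours (3.27 ± 0.15), and H2-T22 from 22.9 and 33.0 CPM to 201 and 227 CPM (2.91 ± 0.19). In implanted tumours H2-T24 had the largest change, from 3.13 and 3.06 CPM to 24.6 and 27.9 CPM (2.73 ± 0.23), and H2-T22 changed by 2.32 ± 0.19. The 2 that fell were Cd1d1, which presents lipids, by -0.75 ± 0.22, and Fcgrt, the neonatal Fc receptor, by -0.55 ± 0.15. Neither was called with median-of-ratios scaling (adjusted p = 0.0603 and 0.0708). Their log2 differences in spontaneous tumours, -0.38 ± 0.22 and -0.37 ± 0.15, did not pass. With summed UMIs, 9 of the 12 were called higher in spontaneous tumours and 1 lower, Fcgrt (-0.44, limma, adjusted p = 0.0282). H2-Q6 and H2-Q7 share long identical stretches with each other and with H2-Q4, so how molecules were divided among them is uncertain.

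The regulators split into interferon-induced factors and the constitutive promoter proteins. Of 13, 4 rose in spontaneous and 5 in implanted tumours, beside 5.09% and 8.6% of all genes, and none fell, where 16.4% of all genes did in implanted tumours. With summed UMIs 1 was called lower in spontaneous tumours. Among them, Stat2, a transcription factor of type I interferon signalling, changed by 2.26 ± 0.12 and 1.62 ± 0.12. Of those named after their values were seen, Irf9, an interferon-regulatory factor, changed by 1.72 ± 0.09 and 0.82 ± 0.09, and Irf1 by 0.97 ± 0.14 and 0.55 ± 0.14. The lowest values were those of Creb1, which binds the X2 box, at -0.30 ± 0.11 in spontaneous tumours (adjusted p = 0.110), and of Rfx5, an X-box factor, at -0.32 ± 0.29 in implanted tumours (adjusted p = 0.461).

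Single cells were compared after each EC was thinned to 2000 UMIs, which left out 22 to 102 cells per library and 580 of the shallow implanted cGAMP replicate 1. A UMI of B2m was then found in 76.8% and 84.1% of ECs in spontaneous PBS libraries, 91.5% in each implanted PBS library, 99.8% in each spontaneous cGAMP library and all ECs of implanted cGAMP libraries. For H2-K1 the median EC held 1 UMI in each spontaneous PBS library, 4 and 3 in implanted PBS, 8 in each spontaneous cGAMP library and 11 in each implanted cGAMP library. With cGAMP the tenth percentile of H2-K1 was 3 UMIs in spontaneous and 5 in implanted tumours, against 0 in all PBS libraries. Before thinning, H2-K1 was found in 90.9% of the ECs of spontaneous PBS replicate 1.

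For H2-K1 and B2m, the variance between cells divided by the mean was highest in the implanted PBS libraries. This ratio is not the spread relative to the level. The variance of H2-K1 UMIs per unit of mean was 4.49 and 3.71 there, against 2.16 to 2.92 in the 6 other libraries, and that of B2m was 4.01 and 3.21 against 1.93 to 2.72. In UMIs, the 10th to 90th percentiles of H2-K1 were as far apart in both spontaneous cGAMP libraries (3 to 15) as in implanted PBS replicate 1 (0 to 12). In the implanted PBS libraries H2-K1 and B2m went together from cell to cell more than elsewhere, with Spearman correlations over cells of 0.682 and 0.573 against 0.311 to 0.411. For H2-K1 and H2-D1 the gap was narrower, 0.760 and 0.612 against 0.335 to 0.598. Cells of a library share its depth and preparation, and no test was made over cells. The 90th percentile of H2-K1 in implanted PBS replicate 1, 12 UMIs, lay above its median in either cGAMP group. In implanted PBS replicate 2 it was 10 UMIs, above the median of 8 in spontaneous cGAMP libraries and below that of 11 in implanted cGAMP libraries.

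**Figure D3:**
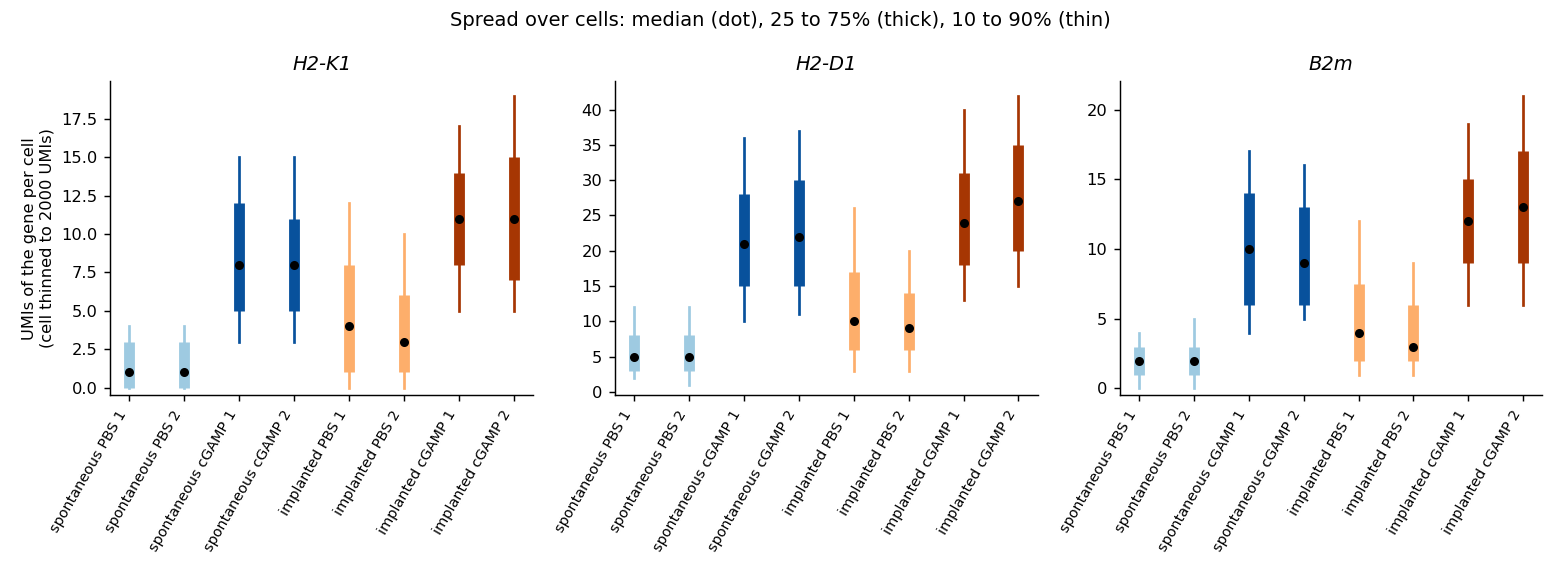
UMIs per EC for H2-K1, H2-D1 and B2m in each library after thinning to 2000 UMIs: median (dot), 25th to 75th percentile (thick line) and 10th to 90th percentile (thin line). H2-K1 medians are 1 UMI in spontaneous PBS, 3 and 4 in implanted PBS, 8 in spontaneous cGAMP and 11 in implanted cGAMP libraries.

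The scarcer genes were seen in fewer cells at this depth. Tap1 was found in 5.97% ± 0.243 of ECs with PBS and 33.5% ± 1.14 with cGAMP in spontaneous tumours (SD, n = 2), and in 22.9% ± 8.58 and 46.9% ± 0.815 in implanted ones. Nlrc5 was found in 4 of 863 ECs of spontaneous PBS replicate 1 (0.463%, 95% Wilson interval 0.180% to 1.19%, counting error only) and in 0 of 554 of replicate 2, which allows a share of up to 0.542% of cells with a UMI at this depth. Before thinning the shares in these libraries were 2.18% and 2.50%. In the other groups its share was 5.43% ± 0.0417 (spontaneous cGAMP), 3.27% ± 0.496 (implanted PBS) and 8.36% ± 0.943 (implanted cGAMP). Erap1 ranged from 8.47% ± 1.81 in spontaneous PBS to 13.4% ± 0.652 in spontaneous cGAMP libraries. No cell type in these tumours is known to lack class I genes, so a background share from free RNA could not be given.

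ECs were then grouped by vessel markers. Each cell went to the list with the highest mean standardised level (at least 0.5, with at least 2 markers detected), which placed 4748 of 7159 ECs, 786 of them within 0.1 of that limit. The groups are ranges of a score, not types, and are named by their markers: arterial (1133 cells), venous (1201), tip (993), AQP7+ (662), proliferative (305) and lymphatic (454). Own markers were among the 10 leading genes of every group, 5 for arterial cells (Gja5, Bmx and Sema3g among them) and 6 for AQP7+ cells, whose leading genes also held the haemoglobin genes Hba-a1 and Hbb-bs. Each group was compared with all other ECs of the same library, and proliferative cells only in the 4 PBS libraries, since each cGAMP library had at most 13.

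Arterial-marker cells were lower in 4 of the 10 genes, with 19.8% of all genes called lower in that comparison. B2m was below the other ECs in all 8 libraries (log2 difference -0.27 ± 0.06, limma, adjusted p = 0.00206) and so was Nlrc5 (-0.77 ± 0.19, adjusted p = 0.00358). The mean Nlrc5 difference was -1.22 in PBS and -0.32 in cGAMP libraries. All ECs of the spontaneous PBS libraries held only 23 and 15 UMIs of Nlrc5, so its marker-group values there rest on few UMIs. Tap1 differed by -0.53 ± 0.12 and H2-K1 by -0.19 ± 0.06. H2-D1 and Tapbp, at 0.14 ± 0.07 and 0.08 ± 0.09, did not pass. Proliferative-marker cells had 5 genes lower, where 14.1% of all genes were called lower, each in 4 of 4 libraries: Tapbp by -0.78 ± 0.14 (adjusted p = 0.00286), H2-T23 by -0.54 ± 0.14, H2-D1 by -0.49 ± 0.07, B2m by -0.26 ± 0.08 and H2-K1 by -0.25 ± 0.08. That count was 2 when spontaneous PBS replicate 1 or either implanted PBS library was left out.

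Lymphatic-marker cells had 4 genes higher, where 14.9% of all genes were called higher. H2-K1 was at 2923 and 1833 CPM in lymphatic-marker cells of spontaneous PBS libraries, against 913 and 937 CPM in the other ECs, and at 3210 and 2357 CPM against 2498 and 2007 CPM with PBS in implanted tumours. With cGAMP it was at 5033 and 4866 CPM against 4388 and 4419 CPM in spontaneous tumours, and at 5050 and 6965 CPM against 5367 and 5631 CPM in implanted ones. The log2 difference was thus 0.23 to 1.68 in PBS libraries and -0.09 to 0.31 in cGAMP libraries. Over 8 libraries H2-K1 differed by 0.47 ± 0.15 (limma, adjusted p = 0.0337), H2-T23 by 0.60 ± 0.14, Tap2 by 0.52 ± 0.13 and Nlrc5 by 1.13 ± 0.32. Only 22 to 30 such cells were in each spontaneous library, and with a minimum of 50 cells, which kept 3 libraries, none of the genes was called in limma. The 8 lymphatic markers summed over all ECs to 1770 and 1809 CPM in implanted cGAMP libraries and to 475 to 1086 CPM elsewhere. Venous-marker cells differed in 1 gene, Erap1 (0.29 ± 0.08, higher in 8 of 8 libraries, adjusted p = 0.0105), with 9.47% of all genes called higher. Tip-marker cells differed in none by limma, with 26.9% of all genes called in either direction. The lowest values were those of H2-Q4 (-0.23 ± 0.11) and Erap1 (-0.20 ± 0.09). These were the 2 of the 10 with an unadjusted p below 0.05, which 4021 of all 10831 genes tested also had.

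AQP7+ cells, which carry fatty-acid uptake genes of capillaries, had H2-D1 (0.20 ± 0.06) and B2m (0.31 ± 0.08) called higher, with 3.21% of all genes called higher. That count was 1 when any 1 PBS library or implanted cGAMP replicate 1 was left out. The difference depended on treatment, a pattern picked out after its values were seen and not tested. B2m in AQP7+ cells was at 1395 and 1736 CPM in spontaneous PBS libraries against 949.7 and 1106 CPM in the other ECs, and at 3885 and 2942 CPM against 2495 and 2023 CPM in implanted PBS libraries. With cGAMP it was at 5042 and 5091 CPM against 5058 and 4959 CPM, and at 6414 and 6674 CPM against 6119 and 6748 CPM. The log2 difference of B2m was thus 0.54 to 0.65 in all 4 PBS libraries and -0.02 to 0.07 in all 4 cGAMP libraries. For H2-K1 it was 0.29 to 0.52 with PBS and -0.32 to -0.03 with cGAMP, and for H2-T23 0.38 to 0.76 and -0.53 to -0.03. In 7 of the 10 genes the PBS range lay above the cGAMP range, against 2.58% of all genes tested in AQP7+ cells, and in the other 3 the ranges overlapped. The same count was 0 in arterial, venous and tip-marker cells, against 2.55%, 3.63% and 2.7% of all genes, and 1 in lymphatic-marker cells, against 1.78%. The opposite order, PBS below cGAMP, was seen for 1 gene in arterial-marker cells and 2 in tip-marker cells, against 3.03% and 2.95%.

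**Figure D4:**
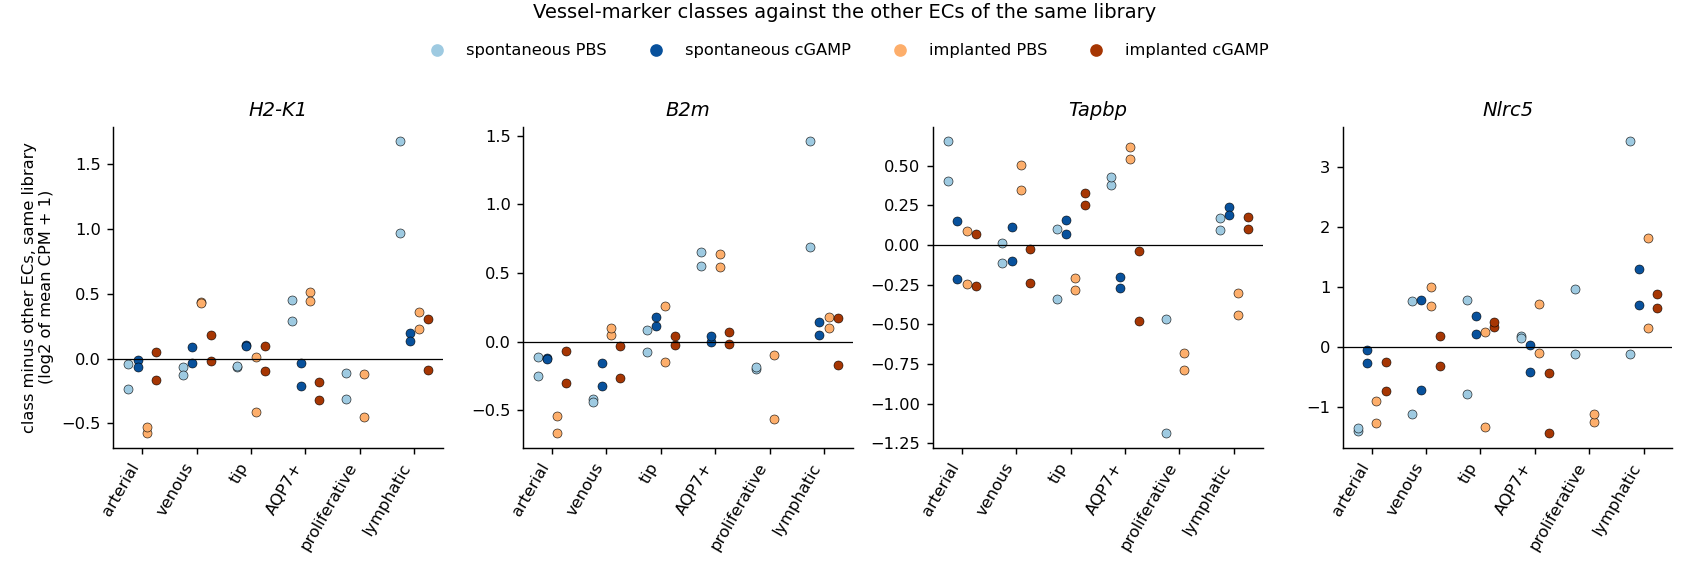
Log2 level in each marker group minus that in the other ECs of the same library, for H2-K1, B2m, Tapbp and Nlrc5, 1 point for each library with at least 20 cells of the group. In AQP7+ cells the 4 PBS points of B2m lie at 0.54 to 0.65 and the 4 cGAMP points at -0.02 to 0.07, and all arterial points of B2m lie below 0.

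The response to cGAMP was seen in every group of ECs with enough cells. In spontaneous tumours 10 of the 10 genes were called in tip-marker cells, 9 in arterial, venous and AQP7+ cells and 6 in lymphatic-marker cells, where 3.91%, 2.11%, 3.3%, 1.7% and 1.41% of all genes were called higher. H2-K1 changed by 2.32 ± 0.16 in tip, 2.28 ± 0.11 in venous, 2.26 ± 0.10 in arterial, 1.74 ± 0.13 in AQP7+ and 1.10 ± 0.23 in lymphatic-marker cells. In implanted tumours 9 genes were called in tip, 8 in arterial and venous and 5 in AQP7+ and lymphatic-marker cells, where 6.03%, 2.87%, 5.03%, 0.849% and 1.61% of all genes were called higher. There H2-K1 changed by 1.69 ± 0.10 in arterial, 1.47 ± 0.16 in tip, 1.11 ± 0.23 in lymphatic, 1.01 ± 0.11 in venous and 0.63 ± 0.13 in AQP7+ cells. Differences between groups in the response were not tested. Erap1 passed only in tip-marker cells of spontaneous tumours (0.95 ± 0.23, adjusted p = 0.0165). In AQP7+ cells of implanted tumours the count was 2 without implanted PBS replicate 2 and 3 without implanted cGAMP replicate 1, and in lymphatic-marker cells of implanted tumours it was 1 without implanted PBS replicate 2 and 3 without implanted cGAMP replicate 2 or either spontaneous cGAMP library. In lymphatic-marker cells of spontaneous tumours it was 2 without spontaneous cGAMP replicate 1 and 3 without spontaneous cGAMP replicate 2 or spontaneous PBS replicate 2.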

How the data were processed

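Live CD31+ CD45- cells had been sorted from 8 tumours' preparations, 2 libraries for each model and treatment, and sequenced with the 10x Chromium 3′ chemistry. The authors mapped reads to mm10 with Cell Ranger 3.0.0, removed cells with under 500 genes or over 10% mitochondrial reads and genes in under 3 cells, and deposited, from Seurat 3.1.1, the natural log of 1 plus UMIs per 10000 of the cell's total. UMIs were recovered as whole numbers (within 0.01) by inverting that scale. No doublet caller was run here, and doublet removal is not given in the sources used here.

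Cells with a Pecam1 UMI were kept, and a library's level of a gene was the mean CPM over them. The 10424 genes that reached 5 CPM in 2 or more libraries were tested as log2(CPM + 1) with limma 3.58.1 (R 4.3.3, trended prior), 4 group means in 1 fit over 8 libraries, Benjamini-Hochberg adjusted, called below 0.05. All p-values of this kind measure the spread between 2 libraries a group, taken as separate mice. Fold changes on that scale understate the change of low genes. Cells of a marker group were compared with the other ECs within each library (at least 20 cells). Detection was computed after thinning to 2000 UMIs. Counts were handled in Python 3.11.15 with numpy 2.4.6, scipy 1.17.1 and pandas 2.3.3, and intervals came from statsmodels 0.14.6. The limma step was tested on simulated data. Between groups, same-numbered libraries did not deviate together (r from -0.22 to 0.13), so they were not paired.

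The genes, the pathway and marker lists and the tests were chosen with earlier results of these data known. All 10 genes were described. Pathway genes were named by rule, the 2 highest and 2 lowest changes per list and response, with 1 such gene not reported here, and outside the pathway the 5 genes most correlated with the mean of the 10. Alternatives covered the pseudocount, filter, scaling, cell selection, trend, replicate block and each library left out.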

Additional observations from a re-analysis of the deposited data

Results flagged for a closer look

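The response to cGAMP differed between models, by the interaction term in limma, for 8 of the 50 pathway genes tested, where 0.46% of all genes were called lower. As log2 response in implanted minus that in spontaneous tumours, the difference was -0.89 for H2-K1 and -2.25 for Nlrc5, for the immunoproteasome subunits -1.22 (Psmb8), -1.37 (Psmb9) and -0.82 (Psmb10), for the Qa genes -1.22 (H2-Q6) and -1.45 (H2-Q7), and -0.91 for Irf9. All 8 responses were smaller in implanted tumours, where the PBS levels of the same genes were higher. None of the 8 was called with no filter, with no trend, or without spontaneous PBS replicate 2 or either spontaneous cGAMP library, and 1 (Nlrc5) without spontaneous PBS replicate 1.

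In AQP7+ cells, H2-K1, Tapbp and H2-T23 lay above the other ECs in all 4 PBS libraries and below them in all 4 cGAMP libraries. The mean log2 difference with PBS minus that with cGAMP was 0.61 for H2-K1, 0.74 for Tapbp and 0.78 for H2-T23. This difference between treatments was not tested.

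Cells without a Pecam1 UMI, which the comparisons did not use, also carried H2-K1, H2-D1 and B2m above the PBS level after cGAMP. In epithelial-marker cells of spontaneous tumours (16, 7, 15 and 11 cells a library) the lower cGAMP value was taken for each gene. It was 3726 CPM for H2-K1 (replicate 1), 6491 CPM for H2-D1 (replicate 2) and 4474 CPM for B2m (replicate 1). PBS libraries had 1083 and 536 CPM of B2m. Tap1 did not rise alike in these cells, with 81.5 and 0 CPM with PBS and 88.2 and 0 CPM with cGAMP. Nlrc5 was at 0 CPM in each of these libraries. In implanted tumours the 97 such cells of cGAMP replicate 1 had 4592, 9712 and 5599 CPM of H2-K1, H2-D1 and B2m, against 2305 and 1781 CPM of B2m with PBS. Replicate 2 had 3 such cells and was left out. In mural-marker cells of spontaneous tumours the lower cGAMP library had 2837, 6102 and 3757 CPM, against 1185 CPM of B2m in the 28 cells of PBS replicate 2.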

How the results depend on the processing

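With 2 libraries a group, most limits come from single libraries. Of 950 values for the 10 genes over 5 comparisons and all alternatives, 882 kept direction and side of the threshold, 22 lost and 40 gained a call, and 6 changed sign. These 6 were all Erap1 between models after cGAMP (-0.01): 0.074 with median-of-ratios scaling, 0.0016 with summed UMIs, 0.0114 with all deposited cells, 0.0115 with cells of at least 2000 UMIs, and -0.114 to 0.102 with 1 library left out, above 0 without spontaneous cGAMP replicate 1 or implanted cGAMP replicate 2. Of 1355 values of called genes in marker groups, 1261 kept and 94 lost the call. Of the 10 genes, leaving out 1 library gave 9 to 10 called in the spontaneous response, 8 to 9 in the implanted response, 0 to 8 in their difference, 8 to 9 between models with PBS (7 with no filter) and 0 to 5 after cGAMP. Over all genes these ranges were 448 to 1808, 1265 to 2495, 2 to 171, 212 to 1234 and 156 to 1447, against 1322, 2609, 69, 816 and 1434. Median-of-ratios scaling moved the share of calls that were higher from 40.2% to 66.4% (spontaneous response), 34.3% to 51.5% (implanted), 43.3% to 67.9% (PBS) and 38.0% to 58.7% (cGAMP). The difference of responses called 0 of the 10 with no filter or no trend, 1 with a pseudocount of 5, 4 with cells of at least 2000 UMIs, 5 in cells with no other-type UMI and 6 with summed UMIs. After cGAMP, 3 were called with median-of-ratios scaling, 4 with summed UMIs and 1 each in cells of at least 2000 UMIs and cells with no other-type UMI. Over all genes, no filter gave 812 (spontaneous), 0 (difference), 327 (PBS) and 784 (cGAMP), no trend gave 771, 0, 414 and 843, summed UMIs gave 2839 (spontaneous), 112 (difference) and 1317 (PBS), all deposited cells gave 43 (difference), and cells with no other-type UMI gave 704, 1598, 401 (PBS) and 796 (cGAMP). In marker groups, leaving out 1 library gave 3 to 5 genes (arterial), 1 to 2 (venous), 1 to 3 (AQP7+), 2 to 5 (proliferative) and 3 to 5 (lymphatic), and for responses 2 to 9 (lymphatic, spontaneous), 1 to 7 (lymphatic, implanted), 2 to 5 (AQP7+, implanted) and 7 to 9 (AQP7+, spontaneous). No filter gave 0 (AQP7+), 3 (proliferative), 2 (lymphatic), and 2 for each of the responses in lymphatic and implanted AQP7+ cells. A pseudocount of 5 gave 2 in venous, one of 0.1 gave 1 in AQP7+ cells and 3 in the implanted lymphatic response, and a minimum of 50 cells gave 0 in lymphatic cells. Thinned to 1000 UMIs, Nlrc5 was found in 2.53%, 1.80% and 3.58% of ECs (spontaneous cGAMP, implanted PBS, implanted cGAMP), Tap1 in 3.26%, 18.9%, 12.7% and 25.2% and Erap1 in 4.12%, 5.65%, 5.45% and 6.61% (both from spontaneous PBS, in that order). A replicate block on the library numbers, which do not pair the libraries, called 10, 9, 3, 9 and 0 of the 10 genes and 1230, 2524, 58, 741 and 1362 of all genes, Tap1 being the gene gained in the difference. A crossed pairing in spontaneous tumours, added after the data were seen, called 10 and 1221. The causes of these changes were not tested.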
